A study of Mus musculus with 16 samples.

Results

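Ifit1, Ifit2, Ifit3, Mx1, Mx2, Rsad2, Isg15, Usp18, Ifi44 and Bst2 were followed as a set of antiviral effector genes in B16-BL6 mouse melanomas. They were taken by name: every non-control probe whose gene name on the array was 1 of these 10, which gave 14 probes of the 41135 measured and 10 genes of 30010 distinct names. The rule itself used no measured value, but the genes were chosen with earlier results of these data known. All 10 genes had a probe past the filter on dim signals, as did 15399 genes in all, but Mx1 and Ifi44 met the filter through 4 arrays only, X-ray replicate 1 and ALA plus X-ray replicates 2, 3 and 4. Of the 10, 9 were higher in tumours given 5-aminolevulinic acid (ALA) with X-rays than in untreated tumours, by log2 fold changes of 1.06 (Bst2) to 3.88 (Ifit1). None passed the test after ALA alone or X-ray alone, although all 10 fitted means after X-ray lay above control (median 1.10). Set beside X-ray alone, the combined treatment gave 0 calls among the 10 in limma (adjusted p = 0.105 to 0.433). The interaction gave 0 as well (adjusted p = 0.221 to 0.648), so with all arrays an added effect of ALA was not shown.

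These genes are switched on by interferon. Type I and type III interferons bind receptors whose kinases activate STAT proteins, which join IRF9 to form the complex ISGF3, and ISGF3 binds a promoter element called ISRE. The proteins made then act on separate steps of viral growth: IFIT proteins bind viral RNA and block its translation, MX proteins are GTPases that trap viral nucleoproteins, viperin (Rsad2) makes a chain-terminating nucleotide, ISG15 is attached to other proteins like ubiquitin, and tetherin (Bst2) holds budding particles at the membrane. Tumours express them too, in the tumour cells and in the leukocytes among them, and irradiation is known to start interferon signalling through nucleic acid sensors.

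The study asked what ALA, a heme precursor that cells turn into the photosensitiser protoporphyrin IX, adds to radiotherapy. RNA came from 16 B16-BL6 melanomas, a pigmented tumour line of C57BL/6 origin, 1 tumour preparation each from male C57BL/6J mice aged 8 weeks. The 4 groups of 4 were control (no treatment), ALA (50 mg/kg), X-ray, and ALA plus X-ray, in which ALA, at the single dose the design text gives, was applied locally before irradiation in fractions. The radiation dose, the number of fractions and the time of sampling are not given in the sources used here. Every preparation was hybridised to a 1-colour Agilent array. Values below are relative signals, where 1 is the 75th percentile of the array, and fold changes are log2 values from limma with Benjamini-Hochberg adjustment over all 15399 genes and a threshold of 0.05. Levels of different probes cannot be compared with each other.

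The 75th percentile of the raw processed signal ran from 213 to 521 over the arrays, between 44.3% and 53.6% of the spots of an array lay well above background, and saturation was found on 0 spots. Each of 4 slides carried 1 array of every group, with the slide number equal to the replicate number. Since a group kept the same place on all slides, treatment and place on the slide cannot be told apart. Within groups the arrays correlated at 0.9667 or more in control, 0.9701 in ALA, 0.9451 in the X-ray group and 0.9265 in ALA plus X-ray. X-ray replicate 1 and ALA plus X-ray replicate 1 stood furthest from the others of their groups, and both lay on slide 1. All 9 melanocyte markers were detected, and their summed relative signal was 924 to 1300 over the 16 arrays. The labels name separate tumour preparations, and the p-values measure the spread between them, with 1 estimate per gene shared by the 4 groups.

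The promoters of 7 of the 10 genes were found in RefSeq (build GRCm38.p6, 250 bases before to 50 after each start, 8 promoters). They were searched for the core of the ISRE, GAAANNGAAA, on both strands. It stood in 5 of the 7 genes and in 3.44% of all 32851 promoters of the table. The 5 windows are shown because they hold the element through which interferon is known to drive this set. Each is printed 5′ to 3′ along the gene's own strand, wholly before the start, with the matches in capitals.
Ifit1, chr19:34640755-34640843, plus strand: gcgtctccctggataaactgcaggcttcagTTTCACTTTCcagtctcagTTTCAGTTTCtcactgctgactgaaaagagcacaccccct
Ifit3, chr19:34583343-34583446, plus strand: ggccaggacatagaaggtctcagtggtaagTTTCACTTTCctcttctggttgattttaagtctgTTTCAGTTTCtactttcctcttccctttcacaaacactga
Rsad2, chr12:26456533-26456602, minus strand: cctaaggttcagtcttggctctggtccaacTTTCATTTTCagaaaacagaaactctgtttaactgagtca
Isg15, chr4:156200845-156200926, minus strand: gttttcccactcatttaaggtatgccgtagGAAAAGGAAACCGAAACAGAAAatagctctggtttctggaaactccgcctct
Bst2, chr8:71537557-71537632, minus strand: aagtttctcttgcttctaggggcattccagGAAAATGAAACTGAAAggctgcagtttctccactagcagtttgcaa

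The Ifit1 and Ifit3 windows each held 2 separate matches, read on the opposite strand as the letters shown. In Isg15 3 matches overlapped in 1 run that ended 57 bases before the start, and in Bst2 2 matches overlapped in a run that ended 115 bases before it. Rsad2 had 1 match, 111 bases before the start. The letters were not in the windows of Ifit2 (2 promoters) or Ifi44. A match is a stretch of letters and not a measured binding site.

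The Ifit genes lie side by side on chromosome 19 and encode proteins of tetratricopeptide repeats. Ifit1, which binds RNA whose cap lacks a methyl group, is measured by 1 probe at chr19:34723796-34723855 (mm9, plus strand). Its relative signal was 0.0433, 0.101, 0.25 and 0.196 in control replicates 1 to 4 and 0.179, 0.21, 0.0503 and 0.292 with ALA. With X-ray it was 2.64, 0.745, 0.344 and 0.21, and with ALA plus X-ray 0.709, 2.13, 3.16 and 2.11. Every ALA plus X-ray array was above every control and every ALA array, while X-ray replicate 1 lay among the ALA plus X-ray arrays and X-ray replicate 4 among the controls. ALA plus X-ray exceeded control by a log2 fold change of 3.88 ± 0.79 (SE from the shared spread, n = 4 and 4, adjusted p = 0.00646). Control replicates 1 and 2 and ALA replicate 3 were not well above background.

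Ifit3 has a probe at chr19:34663105-34663164. Control arrays gave 0.713, 0.848, 1.77 and 1.89, and ALA arrays 1.69, 1.34, 0.53 and 1.82. X-ray arrays gave 20.2, 3.59, 1.66 and 1.23, and ALA plus X-ray arrays 4.31, 13.5, 16.6 and 9.91. The highest of the 16 was X-ray replicate 1, while X-ray replicates 3 and 4 fell within the range of the controls. ALA plus X-ray was 3.05 ± 0.74 above control on the log2 scale (adjusted p = 0.0124). The neighbouring copy Ifit3b, nearly identical to Ifit3 in sequence, rose by 3.06 ± 0.76 (adjusted p = 0.0133). Signal of these 2 genes may be shared between their probes, so neither value is certain to belong to its own gene.

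Ifit2, which binds RNA rich in A and U, has 2 probes. The brighter one, at position 3168 of the transcript (chr19:34650244-34650303), stood for the gene and gave 0.287, 0.354, 0.391 and 0.401 in control and 0.459, 0.314, 0.447 and 0.371 with ALA. X-ray arrays gave 0.991, 0.432, 0.399 and 0.31, and ALA plus X-ray arrays 0.539, 1.02, 1.56 and 0.798. The ALA plus X-ray arrays again did not overlap with control, at a difference of 1.36 ± 0.34 (adjusted p = 0.0139).
The other probe, at position 1231 (chr19:34648307-34648366), is shown because the probes of the gene differed in the call: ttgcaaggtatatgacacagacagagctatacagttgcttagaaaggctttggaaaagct
It was well above background on 6 of 16 arrays, X-ray replicates 1 and 2 and the 4 of ALA plus X-ray. Fitted with all probes it gave 0.73 ± 0.49 for ALA plus X-ray against control (adjusted p = 0.286), with 0 of the 4 controls measurable.

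**Figure D1:**
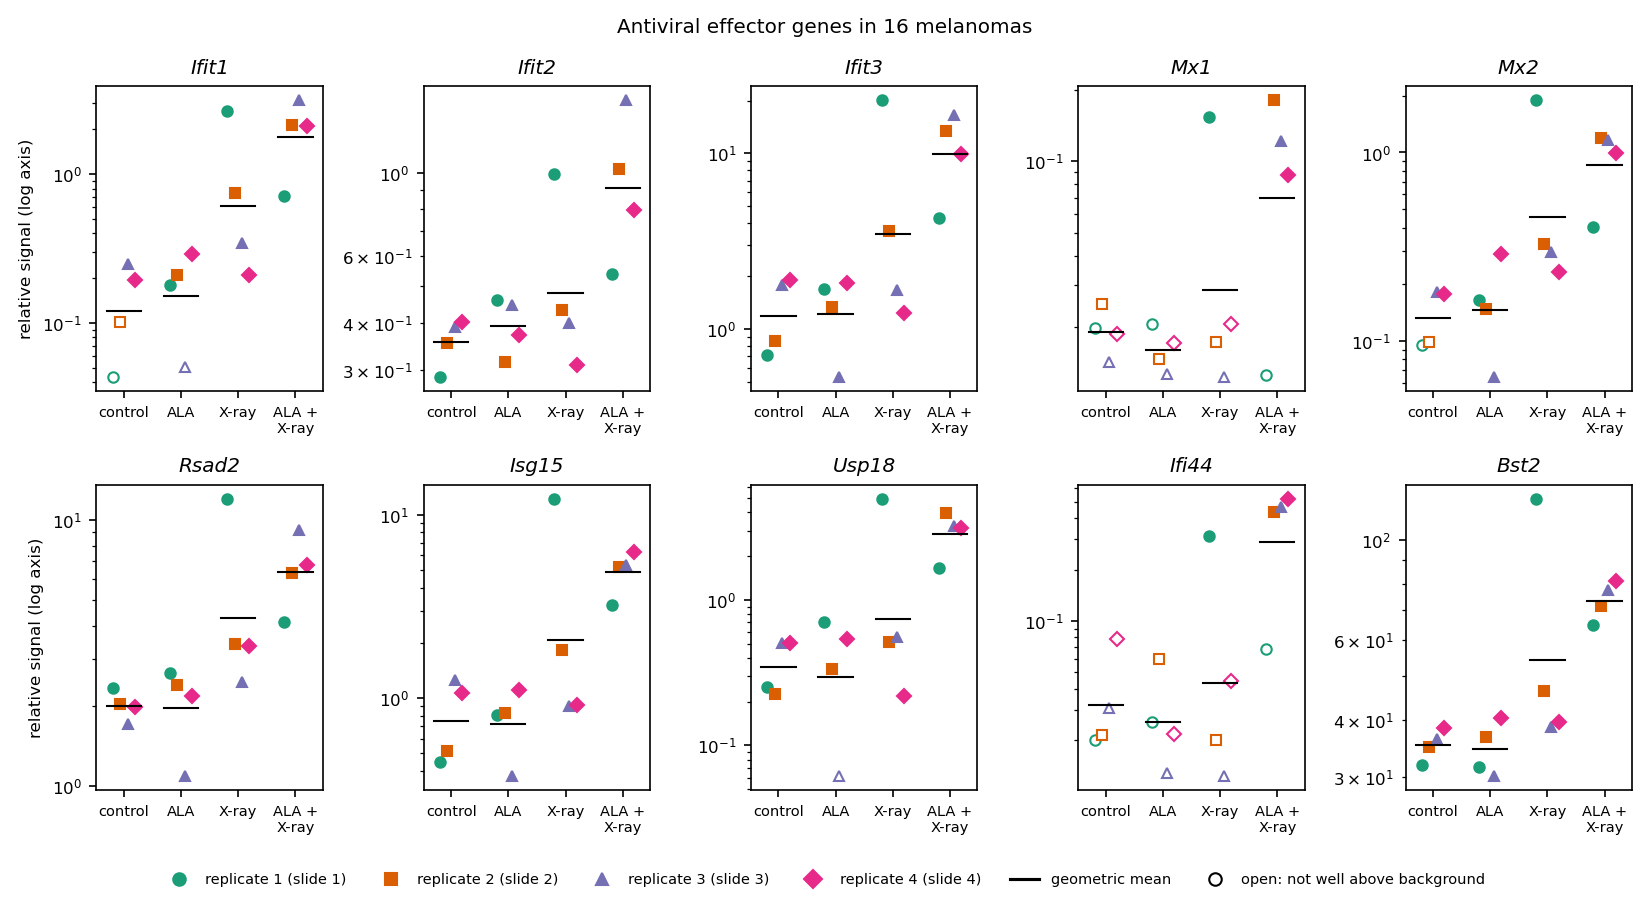
Relative signal of each gene (vertical log axis, 1 is the 75th percentile of the array) on the 16 arrays, by group; marker shape and colour give the replicate and its slide, open markers were not well above background, and the line is the geometric mean of the group. X-ray replicate 1 stands with the ALA plus X-ray arrays, above all controls for 10 of 10 genes, and the other X-ray arrays lie lower, mostly near control.

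The Mx genes lie on chromosome 16, and RefSeq lists both as transcribed pseudogenes in its C57BL/6J reference, a strain long known to lack working MX proteins, so their RNA here is a readout of transcription. Mx2, probed at chr16:97782327-97782386, gave 0.0952, 0.0988, 0.183 and 0.178 in control and 0.166, 0.148, 0.0644 and 0.291 with ALA. X-ray arrays gave 1.9, 0.326, 0.297 and 0.232, and ALA plus X-ray arrays 0.401, 1.19, 1.17 and 0.99. Both irradiated groups lay above every control array, of which replicates 1 and 2 were not well above background. ALA plus X-ray differed from control by 2.70 ± 0.61 (adjusted p = 0.00975), and X-ray from control by 1.78 ± 0.61, which did not pass (adjusted p = 0.11).

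Mx1 was near the limit of the assay. Its probe at position 2182 (chr16:97669616-97669675, minus strand) was well above background on 4 arrays: X-ray replicate 1 at 0.154 and ALA plus X-ray replicates 2, 3 and 4 at 0.181, 0.121 and 0.0874. The other 12 arrays read 0.0123 to 0.0251 without being well above background, among them ALA plus X-ray replicate 1 at 0.0125. ALA plus X-ray against control gave 1.87 ± 0.78 (adjusted p = 0.0916), so Mx1 was the 1 gene of the 10 that did not pass. Its control signal is only a bound, so this and every other log2 value of Mx1 and of Ifi44 is a fitted number partly set by signals that were not well above background, and not the size of a change. The second Mx1 probe, at position 1792 (chr16:97672001-97672060), was well above background on 0 arrays.

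Rsad2 encodes viperin, a radical SAM enzyme. Its probe at position 3474 (chr12:27127859-27127918, minus strand) stood for the gene and gave 2.33, 2.04, 1.71 and 1.98 in control and 2.66, 2.4, 1.09 and 2.18 with ALA. X-ray arrays gave 12, 3.42, 2.46 and 3.36, and ALA plus X-ray arrays 4.15, 6.32, 9.19 and 6.78. Both irradiated groups were clear of the control range. The log2 differences from control were 1.67 ± 0.42 for ALA plus X-ray (adjusted p = 0.0139) and 1.10 ± 0.42 for X-ray (adjusted p = 0.143).

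The other 2 Rsad2 probes, at positions 540 and 909, cross exon junctions. Fitted with all probes, they gave 2.47 ± 0.52 (adjusted p = 0.00783) and 1.57 ± 0.50 (adjusted p = 0.0354) for ALA plus X-ray against control. All 3 probes therefore passed in that comparison. Against ALA the probe at position 909 did not pass (1.16 ± 0.50, adjusted p = 0.0994), while the other 2 did.

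ISG15 is the ubiquitin-like modifier of the interferon response, and USP18 removes it from proteins and also blocks the type I receptor, which makes Usp18 a brake among these genes. The single Isg15 probe (chr4:155573922-155573981, minus strand, mm9) gave 0.446, 0.515, 1.26 and 1.06 in control and 0.805, 0.831, 0.375 and 1.1 with ALA. X-ray arrays gave 12.2, 1.83, 0.906 and 0.922, and ALA plus X-ray arrays 3.2, 5.2, 5.31 and 6.26. Each ALA plus X-ray array exceeded every array of the other groups except X-ray replicate 1. The difference from control was 2.70 ± 0.67 (adjusted p = 0.0136).

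Usp18 (chr6:121220513-121220572) gave 0.253, 0.226, 0.506 and 0.502 in control and 0.705, 0.335, 0.0615 and 0.537 with ALA, the 0.0615 of ALA replicate 3 not being well above background. X-ray arrays gave 4.95, 0.512, 0.557 and 0.218, and ALA plus X-ray arrays 1.66, 3.93, 3.2 and 3.13. X-ray replicates 2, 3 and 4 lay close to the control range and X-ray replicate 1 was the highest of all 16. ALA plus X-ray was 3.03 ± 0.85 above control (adjusted p = 0.0213), a call that was lost without control replicate 1 (adjusted p = 0.0562), control replicate 2 (0.0607), ALA plus X-ray replicate 2 (0.0571) or ALA plus X-ray replicate 3 (0.0535).

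Ifi44, a cytoplasmic protein first found with microtubule aggregates in hepatitis, was measurable on the same 4 arrays as Mx1. Its probe (chr3:151394035-151394094, minus strand) read 0.315 on X-ray replicate 1 and 0.434, 0.462 and 0.519 on ALA plus X-ray replicates 2, 3 and 4. The other 12 arrays read 0.0123 to 0.0781 and were not well above background, ALA plus X-ray replicate 1 being at 0.0682. With control signals raised, where lower, to their array's dimmest spot well above background, ALA plus X-ray was 3.92-fold control. This is not a lower bound, since it counts ALA plus X-ray replicate 1. The same ratio for Mx1 was 0.952. The fit gave 3.18 ± 0.91 for Ifi44 in ALA plus X-ray against control (adjusted p = 0.0231). This call was lost without any 1 of control replicates 1 and 2 and ALA plus X-ray replicates 2, 3 and 4 (adjusted p = 0.0606 to 0.0649). With a normexp background it was 0.79 (adjusted p = 0.0674).

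Bst2 encodes tetherin, which is also a surface marker of plasmacytoid dendritic cells and plasma cells. Its probe (chr8:74058603-74058662, minus strand) gave 31.8, 34.9, 36.3 and 38.5 in control and 31.6, 36.7, 30.1 and 40.5 with ALA. X-ray arrays gave 123, 46.4, 38.7 and 39.6, and ALA plus X-ray arrays 64.7, 71.3, 77.5 and 80.9. Its ALA plus X-ray values were the most even of the set over slides, with a difference from the control array of the same slide of 1.03 to 1.09 on all 4. The fitted difference was 1.06 ± 0.28 (adjusted p = 0.0171), the smallest of the 10.

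In ALA plus X-ray against control, 9 of the 10 genes therefore rose, with a median log2 fold change of 2.70 over the 10 beside -0.08 over all genes tested; 9.77% of all genes were called higher in this comparison. For 8 of the 10 the array values did not overlap between the groups, beside 8.99% of all genes in that direction. Of the 8 genes that were detected in every group, 8 rose. The pan-leukocyte markers, summed over 5 genes of which 5 were detected, ran from 2.22 to 7.12 in control and from 6.19 to 28.5 in ALA plus X-ray. Macrophage and monocyte markers (15 of 15 detected) ran from 65.4 to 123 and from 161 to 318, with 5 of the 15 higher and 0 lower. Fibroblast markers were above 0 for 8 of 8 (median 1.49) and skeletal muscle markers for 10 of 11 (median 1.46), with none called. T and NK cell markers (5 of 13 past the filter, with Cd4, Cd8a, Ncr1 and Prf1 below it) ran from 0.18 to 0.567 and from 0.704 to 5.28. Of the plasmacytoid dendritic cell list, Siglech and Ccr9 were below the filter on these arrays. Of the 3 genes measured (Tcf4, Irf8 and Lair1), 1 was higher (Irf8) and 1 lower. In bulk RNA more cells of a type and more RNA per cell cannot be told apart, and the part of these leukocyte markers in the rise of the antiviral genes was not tested.

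ALA plus X-ray against ALA gave nearly the same list. Again 9 of 10 rose, all but Mx1 (2.13 ± 0.78, adjusted p = 0.0612), with a median of 2.65 beside -0.13 over all genes and with 10.7% of all genes called higher. The rises ran from 1.09 ± 0.28 in Bst2 (adjusted p = 0.0153) to 3.54 ± 0.79 in Ifit1 (adjusted p = 0.00859), and 9 of 10 genes had no overlap between groups beside 9.29% of all genes. Ifit2 (1.21 ± 0.34, adjusted p = 0.022) lost its call without ALA replicate 2 or 4 or without ALA plus X-ray replicate 2 or 3 (adjusted p = 0.0536 to 0.069). Ifi44 lost its call with a normexp background (0.80, adjusted p = 0.0648). Both comparisons use the same 4 ALA plus X-ray arrays. Macrophage markers were lower still in the ALA arrays, 13.6 to 43.5, and 14 of the 15 were higher in ALA plus X-ray. Pan-leukocyte markers were higher for 5 of 5 (median 3.49) and fibroblast markers for 7 of 8 (median 2.35), whose sum was 15.9 to 98.9 with ALA and 59.7 to 421 with ALA plus X-ray. Of the skeletal muscle markers 0 of 11 were called and 11 were above 0 (median 4.22), with sums of 0.406 to 4.16 and 0.659 to 636. The part of these markers was not tested.

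**Figure D2:**
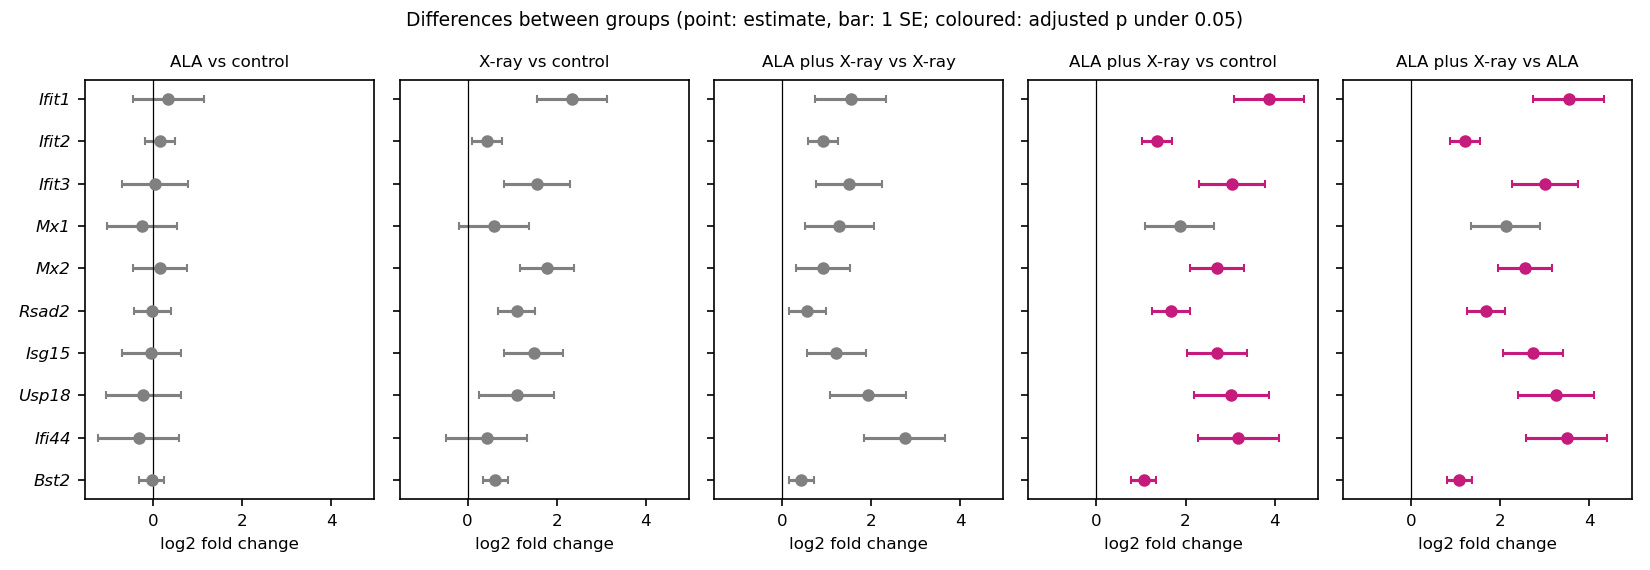
Log2 fold changes of the 10 genes in 5 comparisons (horizontal axis), with bars of 1 SE and calls at an adjusted p under 0.05 in colour. In each of the comparisons of ALA plus X-ray with control and with ALA 9 genes are coloured, and none in the other 3, where the values of ALA against control lie around 0.

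No change of the set was detected after ALA alone. None of the 10 passed in ALA against control (adjusted p = 0.944 to 0.993), 4 were above 0 (49.6% of all genes were), and the differences ran from -0.32 ± 0.91 in Ifi44 to 0.34 ± 0.79 in Ifit1, with a median of -0.03. In this comparison limma called 0 of 15399 genes (0%) at the adjusted threshold and 961 (6.24%) had an unadjusted p under 0.05, none of them in the set. The SE of single genes, 0.28 to 0.91, leaves room for differences of either sign. ALA replicate 3 was the lowest array of its group for 9 of the 10 genes, all but Ifit2, and its median over the set was -1.01 relative to the control mean, against 0.16 to 0.38 on the other 3. That array also had the lowest sums of pan-leukocyte (0.984) and macrophage (13.6) markers of the 16; their part was not tested.

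After X-ray alone no gene of the set passed, and 1 array was far above the other 3. All 10 genes were above control in the fitted means, beside 47.3% of all genes, with a median of 1.10 beside -0.02 over all genes, and the largest was Ifit1 at 2.34 ± 0.79. None passed (adjusted p = 0.103 to 0.822), in a comparison where 1.99% of all genes were called higher; 5 of the 10 had an unadjusted p under 0.05, beside 21.9% of all genes. The array values of Mx2, Rsad2 and Bst2 did not overlap with control, 3 of 10 beside 7.83% of all genes in that direction. X-ray replicate 1 was above all controls for 10 of 10 genes and the highest of all 16 arrays for 6. Its median over the set was 3.57 above the control mean, while X-ray replicates 2, 3 and 4 stood at 0.67, 0.29 and 0.24. Without it the median was 0.42 and 8 of 10 genes were above 0, among them Ifit1 (1.64, adjusted p = 0.223) and Mx2 (1.09, 0.219), while Mx1 (-0.22) and Ifi44 (-0.53) gave values below 0. In that fit 0 of 10 passed and 0.00649% of all genes were called higher. With array weights, which count outlying arrays less, Ifit1 (2.20, adjusted p = 0.0244), Mx2 (1.5, 0.0444) and Rsad2 (0.92, 0.0447) passed. That fit called 2963 of all 15399 genes in this comparison, in either direction.

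X-ray replicate 1 also stood apart in leukocyte markers. Its pan-leukocyte sum was 15.6 where the other X-ray arrays had 2.35, 1.81 and 1.02, and its T and NK cell sum was 4.06 beside 0.161 to 0.304. Its macrophage sum was 124 beside 66.8, 31 and 20.5. In X-ray against control as groups, 1 of 15 macrophage markers (median -1.09) and 0 of 5 pan-leukocyte markers (median -0.55) were above 0, while 5 of 5 T and NK cell markers (median 0.56) and 2 of 2 neutrophil markers measured (median 0.86) were. None of these markers was called. ALA plus X-ray replicate 1, whose median over the set was 1.34 against 2.98 to 3.21 on the other 3, had the lowest pan-leukocyte sum of its group (6.19). The part of these markers was not tested.

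**Figure D3:**
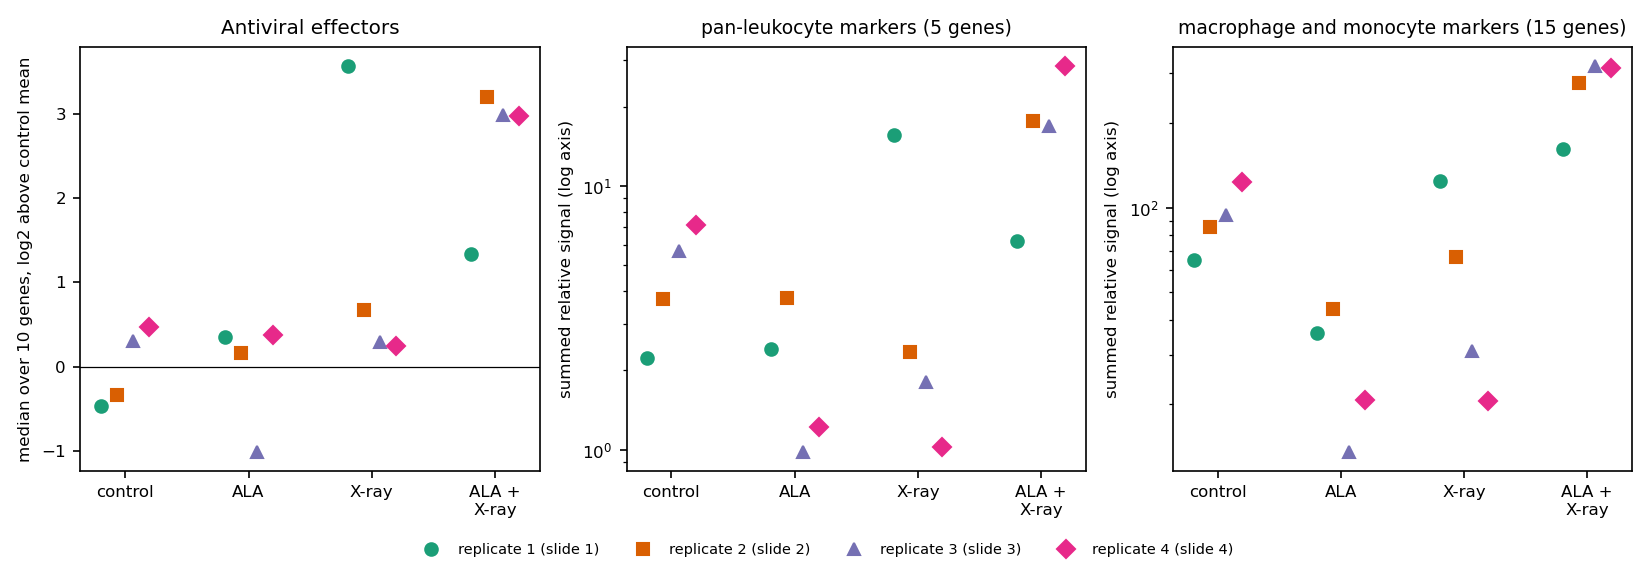
Left, the median over the 10 genes of each array's log2 value above the control mean; centre and right, the summed relative signal (log axis) of pan-leukocyte and of macrophage and monocyte markers on the same 16 arrays, by group and replicate. X-ray replicate 1 is at 3.57 in the left panel and at 15.6 in the pan-leukocyte panel, apart from the other 3 X-ray arrays in both.

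Whether ALA added to X-ray was asked by the comparison of ALA plus X-ray with X-ray. All 10 genes were above 0, beside 40.4% of all genes, with a median of 1.26 beside -0.08 over all genes, and none passed (adjusted p = 0.105 to 0.433); 1.3% of all genes were called higher, and 3 of the 10 (Ifit2, Usp18 and Ifi44) had an unadjusted p under 0.05, beside 23.2% of all genes. The array values overlapped for 10 of 10 genes, where 2.72% of all genes were higher with no overlap. Differences ran from 0.43 ± 0.28 in Bst2 to 2.75 ± 0.91 in Ifi44. In this comparison 7 of 15 macrophage markers (median 2.58) and 2 of 5 pan-leukocyte markers (median 2.74) were called higher, and 0 lower. Fibroblast markers were above 0 for 8 of 8 (median 2.25), with 0 called, and melanocyte markers for 4 of 9 (median -0.03). The part of these markers was not tested. Taken slide by slide, ALA plus X-ray was below X-ray on slide 1 for 10 of 10 genes (median -1.92) and above it on slides 2, 3 and 4 for 10 of 10 genes on each (medians 1.69, 2.54 and 2.43). The 2 arrays that set slide 1 apart were the highest X-ray array and the lowest ALA plus X-ray array.

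The outcome changed with either of those arrays. Without X-ray replicate 1, 6 of the 8 genes detected in every group passed, in a fit that called 4.85% of all genes higher. Over the 10 genes the median was 2.08 and 7 passed, Ifi44 being measurable then only with ALA plus X-ray. The 7 were Ifit2 (1.27, adjusted p = 0.0173), Ifit3 (2.35, 0.0232), Rsad2 (1.06, 0.0496), Isg15 (2.07, 0.0122), Usp18 (2.84, 0.0244), Ifi44 (3.71, 0.00961) and Bst2 (0.82, 0.00302). Ifit1 (2.24, adjusted p = 0.0777), Mx1 (2.10, 0.0695) and Mx2 (1.61, 0.0576) did not pass. Without ALA plus X-ray replicate 1, 1 of those 8 passed, Ifit2 (1.17, adjusted p = 0.028), where 7.76% of all genes were called higher. Mx1 (2.11, 0.0356) and Ifi44 (3.45, 0.0191), which met the filter only through the arrays where they are high, passed too. Without slide 1, left out after its values were seen and because its arrays ran against the rest, 10 of 10 passed with a median of 2.48 (8 of the 8 detected in every group), where 8.75% of all genes were called higher. Both arrays were set aside for their values, so the fit on all 16 arrays is the one reported. The labels give no means to tell whether these 2 arrays hold the samples they name, and an exchange was not tested. The pan-leukocyte sum was higher on X-ray replicate 1 (15.6) than on ALA plus X-ray replicate 1 (6.19), and the macrophage sum lower (124 and 161). Every result on the X-ray and ALA plus X-ray groups rests on the labels of these arrays.

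**Figure D4:**
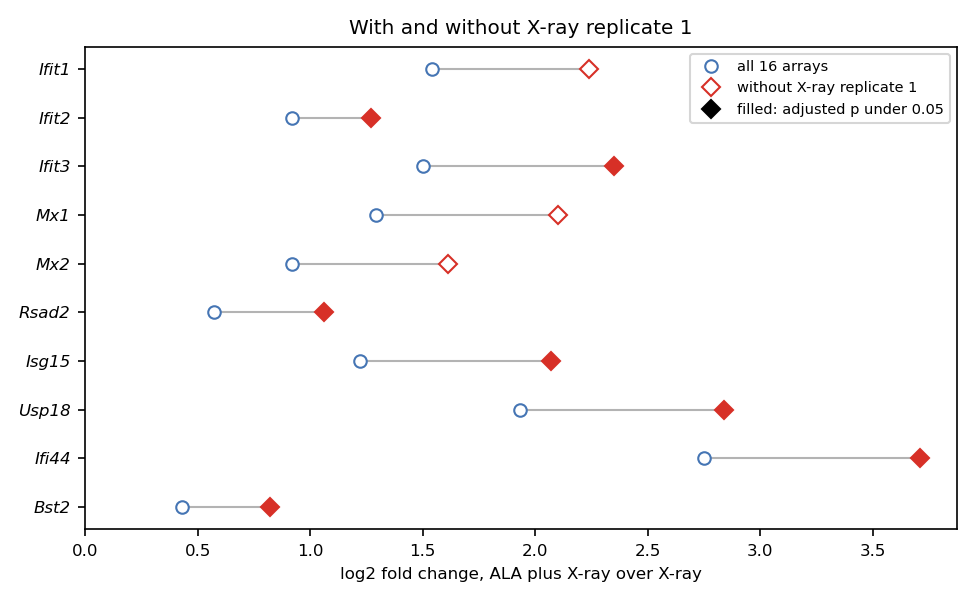
Log2 fold change of ALA plus X-ray over X-ray for each gene (horizontal axis) with all 16 arrays (circles) and without X-ray replicate 1 (diamonds); filled markers had an adjusted p under 0.05. No circle is filled, and 7 of the 10 diamonds are.

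The interaction, which asks whether the effect of ALA differed with and without irradiation, was above 0 for 10 of 10 genes (median 1.23) and for 40.9% of all genes, and passed for none (adjusted p = 0.221 to 0.648), where 0.896% of all genes were called higher. Ifi44 at 3.07 ± 1.29 was the 1 gene with an unadjusted p under 0.05 (0.031), beside 19.1% of all genes. That value rests on control and ALA signals that were not well above background. Without X-ray replicate 1, Bst2 was the 1 of the 8 genes detected in every group that passed (0.86, adjusted p = 0.0173), in a fit with 3.45% of all genes called higher. Without slide 1, 5 of those 8 passed where 6.12% of all were called higher. With all arrays, 11 of 15 macrophage markers (median 4.48) and 1 of 5 pan-leukocyte markers (median 3.97) were called higher in the interaction, and 0 lower. Fibroblast markers were above 0 for 8 of 8 (median 3.31), with 0 called, and melanocyte markers for 3 of 9 (median -0.13). The part of these markers was not tested. A test that misses the threshold does not show that ALA had the same effect in irradiated and unirradiated tumours.

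The 10 genes moved together from tumour to tumour. After the group means were removed, the 45 pairs of genes correlated over the 16 arrays at 0.62 to 0.96, with a median of 0.79; the arrays share scaling factors and the 2 outlying arrays of slide 1, and no test is attached. Over all 16 values the genes outside the set that followed its mean profile most closely were Xaf1 (Pearson r = 0.99), Irgm2 (0.98), Ifih1 (0.979), Dhx58 (0.978), Oas1f (0.977), Parp14 (0.972), H2-T22 (0.969) and Helz2 (0.968). They were picked by this likeness, so their own differences between groups add no evidence.

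Upstream of the effectors, the interferons themselves were barely measurable. Of 21 interferon genes listed, 12 were on the array and 5 passed the filter; Ifnb1 was below it. Ifnz was the only one called in ALA plus X-ray against control (1.02 ± 0.25, adjusted p = 0.0126), and it was also called in X-ray against control (1.34 ± 0.25, adjusted p = 0.0208). Ifng, the type II interferon of T and NK cells, was 1.93 ± 0.82 and did not pass (adjusted p = 0.0975), with the signal of 0 of 4 controls well above background. Ifna13 gave -0.09 (adjusted p = 0.867).

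None of the 9 receptor and kinase genes passed in limma in ALA plus X-ray against control, with a median of 0.04; 2 of them, Ifngr1 (0.48) and Ifngr2 (-0.30), had an unadjusted p under 0.05, and Ifnar1 gave -0.24 (adjusted p = 0.275). Transcription factors of the response rose in 4 of 8 cases and fell in 0. Irf7, the factor that amplifies interferon production, rose by 3.47 ± 1.01 (adjusted p = 0.0252). The ISGF3 subunits Irf9 (1.29 ± 0.30, adjusted p = 0.0102) and Stat2 (1.15 ± 0.33, adjusted p = 0.0223) rose. So did Irf8, which is also on the plasmacytoid dendritic cell list.

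Enzymes that attach ISG15 rose in 2 of 4 cases: Trim25 (1.02, adjusted p = 0.00383) and Ube2l6, the conjugating enzyme (1.35, adjusted p = 0.0131). Uba7, the activating enzyme, gave 0.76 (adjusted p = 0.0518). Ube2l6 was also higher in X-ray against control (1.38, adjusted p = 0.0392). Among 8 inhibitors of interferon signalling 1 rose and 1 fell, Ptpn1 (0.43, adjusted p = 0.0196) and Ptpn2 (-0.79, adjusted p = 0.00646), both phosphatases that act on the pathway's kinases, and Socs1 gave 1.30 (adjusted p = 0.0576).

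Sensors of nucleic acids rose in 6 of 12 cases. Sting1, the adaptor for cytosolic DNA, rose by 1.17 ± 0.18 (adjusted p = 0.00222), Tlr7, an endosomal RNA receptor, by 2.17 ± 0.51 (adjusted p = 0.0108) and Ifih1, the RNA sensor MDA5, by 2.22 ± 0.51 (adjusted p = 0.00976). The 1 that fell was Cgas, the DNA sensor upstream of Sting1 (-0.75 ± 0.21, adjusted p = 0.0229), named here after its value was seen; it was also lower in X-ray against control (-0.93 ± 0.21, adjusted p = 0.0348). Against X-ray alone, Sting1 (0.86 ± 0.18, adjusted p = 0.0375) and Tlr7 (3.23 ± 0.51, adjusted p = 0.0215) passed. Tlr7 also passed in the interaction (5.53 ± 0.72, adjusted p = 0.0136).

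Effectors outside the set moved the same way in ALA plus X-ray against control. Of the oligoadenylate synthetase genes, whose products make short signalling chains of adenylate when they meet double-stranded RNA, 5 rose, among them Oas1a (2.30, adjusted p = 0.01), Oas2 (3.24, adjusted p = 0.0164) and Oas3 (2.71, adjusted p = 0.0247). Of 24 other interferon-stimulated genes 20 rose and 0 fell, with a median of 1.65, including Trim30a (2.53, adjusted p = 0.00843), Samd9l (1.52, adjusted p = 0.00974) and Parp9 (1.30, adjusted p = 0.0101). Only 1 of the 24, Slfn5, passed against X-ray (2.65, adjusted p = 0.0377), and only Isg20 passed in X-ray against control (2.18, adjusted p = 0.0331).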

How the data were processed

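RNA of 16 tumours was measured on 1-colour Agilent arrays. Per the file headers, each scanner file gives a processed signal, which is an intensity on a linear scale from which Agilent Feature Extraction 10.7.3.1 removed background and spatial trends, and flags, which are other values; the submitters' processing notes name version 9.5.3.1. The authors also deposited processed values, an intensity with the same median (31.88) on every array; how these were normalised is not stated, and they served as an alternative.

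From the 43379 non-control spots, log2 processed signal minus the array's 75th percentile was taken, spots not marked as outliers were averaged by probe, and 39 of 41174 probes without such a spot were left out. A probe had to lie well above background on 4 or more of the 16 arrays, and the one of highest mean stood for its gene (15399 genes). Probe positions are those of the array files (mm9). Names were updated through RefSeq by accession (26876 probes), symbol (2894) or former symbol (351); for the other 11053 the array's own name was used. Linear models (limma 3.58.1 with data.table version 1.17.8 in R 4.3.3) took a mean for each of the 4 groups (12 residual and 2.35 prior degrees of freedom) for 6 comparisons, with Benjamini-Hochberg adjustment within each. The code was tested on simulated data. Where no array of a group was well above background, a ratio was also taken with that group's signals raised. They were raised, where lower, to the dimmest spot well above background on their array. The ratio is not a lower bound where the other group also held arrays that were not well above background. The number of arrays limits the precision.

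Genes named are the 10 members, the 3 genes of smallest p in ALA plus X-ray against control per pathway list, and the 8 genes whose values correlated best with the members' mean. Others were named after their values were seen. The members and lists were chosen with earlier results of these data known, so no pattern here is independent evidence. Same-numbered arrays share a slide; their deviations from group means correlated at -0.461 to 0.54 over all genes (24 pairs, median 0.064). The alternatives changed the background (normexp with an offset of 50), the scaling (quantile, median, or the values the authors deposited), the filter, the probes, the groups in the fit, the slide as a block and array weights, and left out each array in turn. Leaving out slide 1 was added after the data were seen.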

Additional observations from a re-analysis of the deposited data

Results flagged for a closer look

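In 60 groups of 4 array values (14 probes and the median of the 10 genes, in each group) the gap between the outermost array and its neighbour was divided by the range of the group, and 10 exceeded the 95% limit of Dixon's test. Chance alone gives about 1 in 20, and the 60 are not independent.

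Slide 1 held most of them. X-ray replicate 1 stood high for Bst2 (ratio 0.843), Mx2 (0.839) and the median of the 10 genes (0.871). ALA plus X-ray replicate 1 stood low for Ifi44 (0.913), Mx2 (0.833) and the median of the 10 genes (0.878). The values beside these are the leukocyte markers given in the report.

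In the ALA group the median of the 10 genes was low on replicate 3 (0.843). The Rsad2 probe at position 540 was low on ALA replicate 2 (0.888). The Mx1 probe at position 1792 was high on ALA replicate 2 (0.848) and on ALA plus X-ray replicate 2 (0.928), at signals that were not well above background.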

How the results depend on the processing

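For ALA plus X-ray compared with control and with ALA, Ifit1, Ifit3, Mx2, Rsad2, Isg15 and Bst2 stayed called under every alternative that measured them. Without 1 array the members called ran from 7 to 10 and from 8 to 10 there, from 0 to 7 against X-ray, 0 to 2 in the interaction and 0 to 0 in X-ray and in ALA against control. Their medians ran from 2.5 to 2.99, 2.29 to 2.95, 0.86 to 2.08, 0.77 to 2.01, 0.42 to 1.46 and -0.18 to 0.27 in that order, and the genes called from 1954 to 5953, 2165 to 5817, 3 to 3135, 1 to 1065, 1 to 1087 and 0 to 1. Slide as a replicate block changed no member's call, and 8 genes in all passed in the interaction. Over the 24 pairs of arrays on the same slide, deviations correlated at -0.461 to 0.54, above 0.1 in 9. For control with ALA plus X-ray the values were 0.54, 0.088, 0.516 and 0.406 on slides 1 to 4. Such values cannot tell a pairing of arrays from their shared slide. Array weights called 3 members in X-ray against control (Ifit1, Mx2, Rsad2). They called 4 against X-ray (Ifit2, Mx1, Usp18, Ifi44) and 2 in the interaction (Mx1, Ifi44). Mx1 and Ifi44 met the filter only through the arrays where they are high. Of all 15399 genes, array weights called 2963, 2165 and 2023 in those comparisons, in either direction. For ALA plus X-ray against control and against ALA they called 6442 and 6438, with 10 members in both, and in ALA against control 40. Without slide 1, chosen after seeing that it held both outlying arrays, 10 members passed against X-ray (median 2.48, 2982 genes). In the interaction 7 passed (median 2.76, 1339 genes), 5 of them among the 8 detected in every group. In X-ray against control 4 genes passed.

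A normexp background lowered the medians of ALA plus X-ray to 1.56 against control and 1.56 against ALA, and called 520 genes against X-ray. With all 16 arrays well above background, 5 of the 5 members left were called against control (median 1.67) and 5 against ALA. Of all 12142 genes in that fit, 3683 were called against control and 3403 against ALA, in either direction. Median scaling called 28 genes in X-ray against control, and for ALA plus X-ray 2135 against control and 1896 against ALA. It also moved the share of calls that were higher from 59.2% to 96.4% in X-ray against control, from 62.9% to 84.8% against X-ray, from 44.4% to 71.7% against ALA and from 73% to 88.3% in the interaction, and shifted the median of all genes in ALA against control by -0.12. No filter called 3 genes in X-ray against control, 11 against X-ray and 40 in the interaction. Only the groups compared gave 2 genes in ALA against control, 1 against X-ray, 1603 against control and 1589 against ALA; the interaction needs all groups and was not run so.

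Signs turned only where a value was near 0 or 1 array set it, and the cause was not tested. The ALA against control median was 0.04 with normexp, 0.15 with array weights, and 0 with quantile scaling and with the authors' table. In that comparison Usp18 and Bst2 gave 0.04 and 0.09 with normexp, Ifit3 -0.09 with median scaling, and Rsad2, Isg15, Usp18 and Bst2 0.13, 0.18, 0.31 and 0.02 with array weights. Without slide 1 Ifit1, Ifit2, Ifit3 and Mx2 gave -0.23, -0.03, -0.38 and -0.07. Without 1 array the values ran from -0.15 to 0.88 (Ifit1), -0.22 to 0.43 (Ifit3), -0.18 to 0.54 (Mx2), -0.16 to 0.26 (Rsad2), -0.29 to 0.28 (Isg15), -0.64 to 0.53 (Usp18), -0.73 to 0.11 (Ifi44) and -0.11 to 0.03 (Bst2). In X-ray against control Ifi44 gave -0.02 with normexp, -0.18 with array weights, -0.53 without X-ray replicate 1 and -0.75 without slide 1; Mx1 gave -0.22 and -0.2 without that array and that slide, and Ifit2 -0.02 without slide 1. Without 1 array these ran up to 1.03 (Ifi44) and 0.99 (Mx1). None of these turned values passed.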
